A study of Mus musculus with 6 samples.

Results

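The genes described here are Trp53, which encodes the transcription factor p53, and genes that p53 is known to switch on, measured in E0771 mouse breast carcinoma cells with and without knockdown of lamin A/C. The 10 genes were Trp53, Cdkn1a, Mdm2, Ccng1, Bbc3, Sesn1, Phlda3, Gdf15, Trp53inp1 and Zmat3, and each was looked up by its exact symbol among the 10520 genes of the count table. A row was found for 9 of the 10, and Trp53inp1 is not analysed here. All 9 passed the filter on low counts and were tested together with every other gene that did, 8969 in all.

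The study asked whether lower levels of A-type lamins, the proteins that stiffen the nuclear envelope, alter migration, growth and metastasis of melanoma and breast cancer cells. Gene expression in E0771 cells was a part of it. E0771 cells, a line from C57BL/6 mice, were transduced with lentiviruses carrying either the pLKO.5-puro empty vector (shControl) or an shRNA against lamin A and lamin C (shLmna). Both lines were selected in puromycin at 3 µg/ml and expanded, so that shControl cells also carried a vector and had also been through selection. The empty vector carried no shRNA. Effects of expressing an shRNA, or of its other targets, cannot be told apart from those of lower lamin A/C. RNA was sequenced by MARS-seq, a method that reads the 3′ ends of polyadenylated transcripts and adds a random sequence tag, a unique molecular identifier or UMI, to each captured molecule, which lets amplified copies count once. Each group had 3 libraries, of 1 stable line per construct and with no second shRNA, and nothing in the labels says that the libraries came from separate cultures. The p-values therefore measure the spread between these libraries, which may be technical. The Trp53 genotype of the line is not given in the sources used here.

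p53 is held at a low level in unstressed cells by Mdm2, a ubiquitin ligase that marks it for degradation and that p53 itself induces, which closes a negative feedback loop. DNA damage and other stresses release p53, which binds pairs of half-sites in DNA and activates genes of cell cycle arrest, cell death, repair and metabolism. p53 is regulated mostly through its protein, and the data described here measure transcripts only.

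The libraries held between 1846208 and 3242051 UMIs. Levels are given as CPM, the UMIs of a gene per 1000000 UMIs of all tested genes in the library after scaling by TMM factors, and differences as log2 fold changes of shLmna over shControl from edgeR's quasi-likelihood test, with their standard error (SE). A gene is said to have passed where p adjusted by Benjamini-Hochberg over all tested genes was below 0.05. The targeted gene Lmna stood at 810.3, 873.6 and 935.9 CPM in shControl and at 387.9, 375.6 and 379.1 in shLmna, with a log2 fold change of -1.20 (SE 0.13) and an adjusted p of 3.5e-05 in edgeR's test. Among all tested genes 13.7% passed, 7.96% higher and 5.78% lower in shLmna cells, and the median log2 fold change was 0.00. The libraries of the groups lay in separate runs of plate positions, 13 to 15 for shControl and 16 to 18 for shLmna, so that position and group cannot be told apart.

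Because p53 acts on its targets through DNA, the promoters are shown first. RefSeq promoter windows of 300 bases (250 before and 50 after a transcription start, GRCm38.p6) were at hand for 8 of the genes, in 13 windows, with none for Zmat3 and Trp53inp1. They were searched for the p53 half-site consensus, a pattern of 10 bases that reads the same on both strands. A perfect half-site was present in 8.36% of all 32851 windows and in 5 of the 13. A pair of adjacent half-sites with at most 1 mismatch over the 20 bases was found in 29 of all windows (0.0883%) and in 2 of the 13, those of Cdkn1a and Ccng1. The Cdkn1a element began 51 bases before an upstream start of the gene, and its second half-site matched 9 of 10 bases. A further perfect half-site, GGACTAGCTT, began 73 bases before that start, with a gap of 12 bases to the element, and is in lower case below. Pairs of perfect half-sites with a gap of at most 13 bases were found in 24 of all windows (0.0731%). Of the 13 windows, 1 held such a pair, that of Cdkn1a. The window, chr17:29090729-29091028 on the plus strand, is printed 5′ to 3′ with the 20-base element in capitals, since Cdkn1a had the largest estimated difference of the 9 genes.
Cdkn1a: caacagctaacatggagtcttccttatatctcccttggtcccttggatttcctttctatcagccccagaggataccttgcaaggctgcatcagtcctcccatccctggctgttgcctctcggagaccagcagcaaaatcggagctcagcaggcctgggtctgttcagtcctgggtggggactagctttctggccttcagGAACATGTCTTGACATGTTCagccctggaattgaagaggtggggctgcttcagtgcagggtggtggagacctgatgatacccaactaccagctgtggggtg

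The Ccng1 element lay 195 bases before the start. It is shown with 20 bases on each side, chr11:40755442-40755501 on the minus strand, also with the element in capitals, because it is the other such element among these genes and the groups overlapped in Ccng1.
Ccng1: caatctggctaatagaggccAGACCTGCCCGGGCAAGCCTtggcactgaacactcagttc
Single perfect half-sites, again in capitals, stood in the windows of Mdm2 (chr10:117710925-117710954, minus strand), Trp53 (chr11:69580274-69580303, plus strand) and Sesn1 (chr10:41887256-41887285, plus strand).
Mdm2: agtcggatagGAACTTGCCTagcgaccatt
Trp53: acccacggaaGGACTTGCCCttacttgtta
Sesn1: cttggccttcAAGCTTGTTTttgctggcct
The windows of Bbc3, Phlda3 and Gdf15 held no perfect half-site. A match describes these letters only, and p53 response elements are also known in introns, as in Mdm2, outside such windows.

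Of the 9 measured genes, Cdkn1a, Mdm2 and Bbc3 fell in shLmna cells and none rose. The 3 that passed are 33.3% of the 9, beside the 13.7% of all tested genes that passed and the 5.78% that passed lower. Without shLmna 1, 2 or 3 only Cdkn1a passed (11.1%), beside 9.43%, 8.30% and 7.10% of all genes in those fits. Without shControl 1, 2 or 3, 2 passed (22.2%), beside 8.65%, 5.89% and 17.2%. The estimates of 7 of the 9 genes were below 0, as were 49.6% of all estimates, and the median over the 9 was -0.31. In 5 genes (Trp53, Cdkn1a, Mdm2, Bbc3 and Phlda3) every shLmna library was below every shControl library, a pattern seen in 15.7% of all tested genes, and in none was every shLmna library above, a pattern seen in 16.8%, or 32.5% for both directions together. With so few genes, chosen with earlier results of these data known, these shares describe the list and do not test it. A lower level can come from fewer expressing cells or from less RNA in each, which cannot be told apart in RNA from whole cultures.

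**Figure D1:**
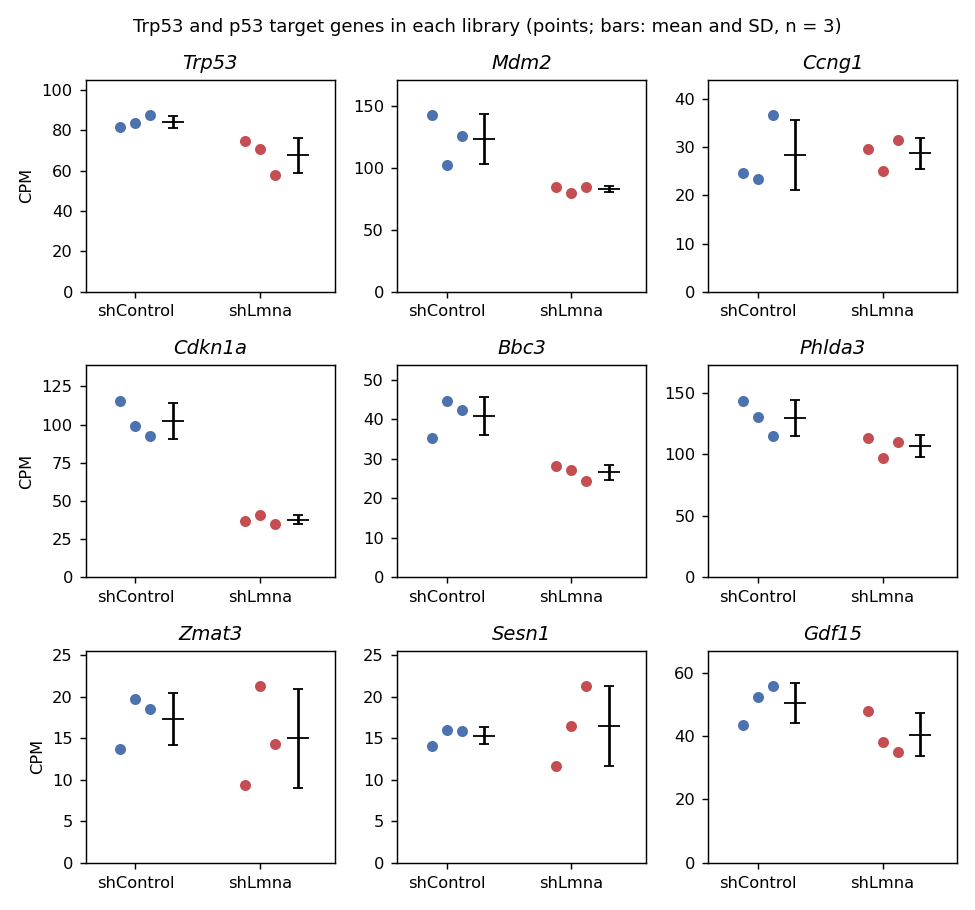
CPM (y axis, from 0, scaled for each gene) of the 9 measured genes in each of 3 shControl (blue) and 3 shLmna (red) libraries, with the mean and SD of each group in black. The shLmna points of Cdkn1a lie between 35.1 and 41.1 and its shControl points between 92.8 and 116, whereas the groups of Ccng1, Sesn1, Zmat3 and Gdf15 overlap.

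Trp53 itself (chr11:69580359-69591873, plus strand) was measured at 81.6, 83.5 and 87.5 CPM in shControl and at 74.6, 70.5 and 58.0 in shLmna. The groups did not overlap, but the gap between the lowest shControl and the highest shLmna library was smaller than the SD of the shLmna libraries. The means were 84.2 ± 3.05 and 67.7 ± 8.66 (SD, n = 3 each), and the log2 fold change of -0.31 (SE 0.16, 95% interval -0.64 to 0.02) did not pass edgeR's test, with an adjusted p of 0.210. The interval holds both no difference and a decrease of Trp53 to 64.2% of the shControl level.

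Cdkn1a (chr17:29090976-29100727, plus strand) encodes p21, the inhibitor of cyclin-dependent kinases through which p53 arrests the cell cycle. It was counted 295, 317 and 175 times in the shControl libraries and 99, 112 and 66 times in the shLmna libraries, or 116, 99.1 and 92.8 against 37.1, 41.1 and 35.1 CPM. Every shLmna library was thus below every shControl library by a wide margin. The means were 103 ± 11.8 and 37.8 ± 3.07 (SD, n = 3 each), a 2.71-fold lower level in shLmna cells (95% interval 2.13 to 3.45). The log2 fold change was -1.44 (SE 0.16) with an adjusted p of 4.57e-05 in edgeR's test. By p, Cdkn1a ranked 13th of the 518 genes that passed lower, and by size of the change 64th. It was the only one of the 9 to meet the study's criteria for differential expression (mean normalised count above 5, absolute log2 fold change above 1, adjusted p below 0.05), which 5.71% of all tested genes met in either direction and 1.74% of all tested genes met as lower. Cdkn1a passed in all 16 alternative analyses, 6 of which leave out 1 library each.

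Mdm2 (chr10:117688875-117710758, minus strand), the negative regulator of p53, had 142, 102 and 126 CPM in shControl and 84.3, 79.7 and 84.6 in shLmna. The shLmna libraries lay close together and below the shControl libraries, which were more scattered. The means were 123 ± 20.2 and 82.8 ± 2.76 (SD, n = 3 each), a 1.49-fold lower level (95% interval 1.18 to 1.88). edgeR's quasi-likelihood test gave a log2 fold change of -0.57 (SE 0.16) and an adjusted p of 0.0252. Mdm2 passed in 12 of the 16 alternatives and did not without shControl 1 or without any 1 of the 3 shLmna libraries, with estimates from -0.70 to -0.47 and an adjusted p of up to 0.115.

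Bbc3 (chr7:16308393-16318205, plus strand) encodes Puma, a BH3-only protein that p53 induces to start mitochondrial apoptosis. Its levels were 35.3, 44.7 and 42.4 CPM in shControl and 28.1, 27.2 and 24.5 in shLmna, again without overlap. The means of 40.8 ± 4.91 and 26.6 ± 1.89 (SD, n = 3 each) differed 1.53-fold (95% interval 1.16 to 2.02), lower in shLmna. The log2 fold change was -0.61 (SE 0.19) with an adjusted p of 0.0410 by edgeR's test. Bbc3 passed in 9 of the 16 alternatives. It did not pass with DESeq2, with counts thinned to the smallest library, without shControl 2 or 3, or without any 1 of the shLmna libraries, and the adjusted p then reached 0.171.

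**Figure D2:**
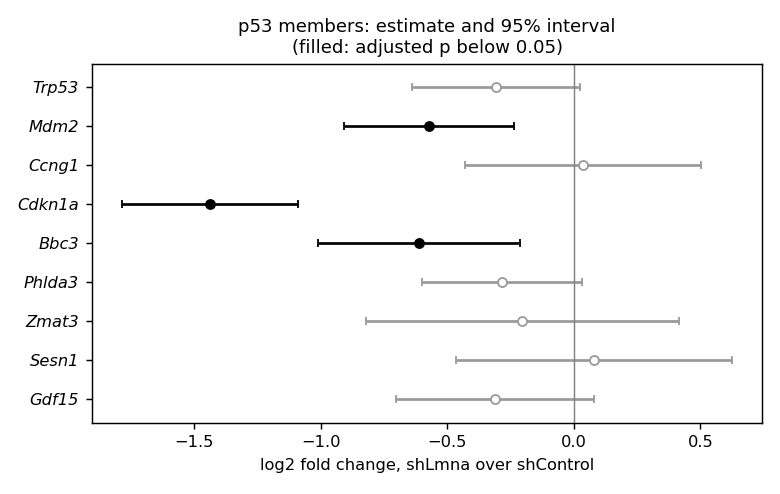
Log2 fold change of shLmna over shControl (x axis) with its 95% interval for each of the 9 measured genes, from edgeR. Filled points (Cdkn1a at -1.44, Bbc3 at -0.61 and Mdm2 at -0.57) have an adjusted p below 0.05, and the other intervals include 0.

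Phlda3 (chr1:135766119-135769136, plus strand), a pleckstrin homology domain protein that restrains Akt signalling, was at 144, 130 and 115 CPM in shControl and at 113, 96.9 and 110.1 in shLmna. The highest shLmna library was just below the lowest shControl library. The log2 fold change of -0.28 (SE 0.15, 95% interval -0.60 to 0.03) did not pass edgeR's test (adjusted p = 0.232).

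Gdf15 (chr8:70629393-70632456, minus strand), a secreted stress cytokine of the TGF-β superfamily, had 43.5, 52.2 and 55.7 CPM in shControl and 48.0, 38.2 and 35.1 in shLmna. The groups overlapped, since the lowest shControl library was below the highest shLmna library. Its log2 fold change was -0.31 (SE 0.18, 95% interval -0.70 to 0.08), with an adjusted p of 0.293 in edgeR's test.

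The remaining 3 genes showed no difference beyond the spread between libraries. Ccng1 (chr11:40748552-40755311, minus strand), which encodes cyclin G1, a partner in the control of Mdm2, stood at 24.7, 23.5 and 36.6 CPM in shControl and at 29.6, 24.96 and 31.4 in shLmna. The third shControl library was the highest of the 6. The log2 fold change was 0.04 with an SE of 0.22 and a 95% interval of -0.43 to 0.50. The interval leaves out a decrease of the size estimated for Mdm2 or Bbc3, but this holds only without a correction for GC content. When the libraries were corrected for GC content, the estimate turned to -0.25 (SE 0.20). Without shControl 2 the estimate was -0.09 (SE 0.25).

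Sesn1 (chr10:41809935-41908424, plus strand), a stress-induced inhibitor of mTORC1, was at 14.1, 15.9 and 15.9 CPM in shControl and at 11.6, 16.5 and 21.3 in shLmna, so that the shLmna libraries surrounded the shControl libraries. The log2 fold change was 0.08 (SE 0.26, 95% interval -0.46 to 0.62). Zmat3 (chr3:32334792-32366014, minus strand), an RNA-binding zinc finger protein, had 13.7, 19.7 and 18.6 CPM in shControl and 9.4, 21.3 and 14.4 in shLmna, with an estimate of -0.20 (SE 0.29, 95% interval -0.82 to 0.42). The interval of Zmat3 is wide enough to hold a decrease as large as that estimated for Mdm2. That of Sesn1, from all 6 libraries, leaves out such a decrease and holds an increase of the same size. Sesn1 had only 30 to 51 UMIs in a library, and its estimate ranged from -0.12 to 0.27 with 1 library left out.

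GC content moved with the groups over all genes. The last 1000 bases of each gene's longest GENCODE transcript, a coding one where possible, stood for its counted 3′ end. These ends had a median of 44.3% GC in genes that passed higher and 49.6% in genes that passed lower, beside 47.1% in all tested genes. The 3′ ends of Cdkn1a (54.0%) and Bbc3 (60.8%) were GC-rich and that of Mdm2 (41.3%) was not. After a correction of each library for GC content the estimates were -1.41 for Cdkn1a, -0.60 for Mdm2 and -0.66 for Bbc3, and all 3 passed. No other annotated gene shares this 3′ end in any of the 9 genes, and other 3′ ends of these genes were not examined.

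**Figure D3:**
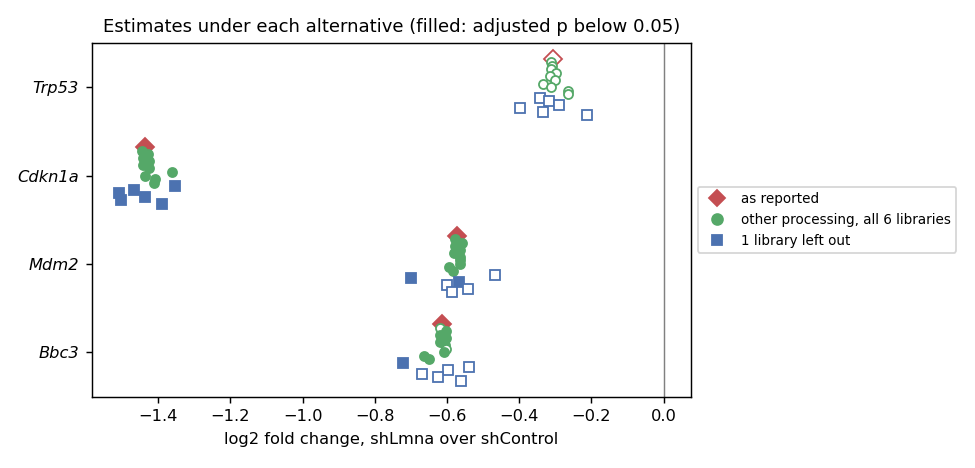
Log2 fold change of shLmna over shControl (x axis) of Trp53 and the 3 genes that passed, as reported (red diamonds), under the 10 alternatives that use all 6 libraries (green circles) and with 1 library left out (blue squares). Filled symbols have an adjusted p below 0.05: all those of Cdkn1a are filled, none of Trp53 is, and every estimate is below 0.

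To set these genes beside the wider p53 response, 52 other known targets were listed by function. Of these, 39 had a row and 35 were tested. 9 passed, 5 lower and 4 higher, or 25.7% of those tested beside 13.7% of all genes, and 2 met the study's criteria. Without shControl 2, shLmna 2 or shLmna 3 the number that passed dropped to 1 (2.86%), beside 5.89%, 8.30% and 7.10% of all genes in those fits. Their estimates were divided, 20 below and 15 above 0, with a median of -0.06. The groups did not overlap in 15 of the 35, 9 lower and 6 higher, beside 32.5% of all genes in either direction. This list too was chosen with earlier results of these data known, so its shares describe it and do not test it.

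Targets of growth arrest held 2 genes that fell among 6 tested, beside 5.78% of all genes that passed lower. Gadd45a, which binds cell cycle and repair proteins after damage, was at 62.7, 59.4 and 79.1 CPM in shControl and at 36.4, 48.5 and 45.7 in shLmna (log2 fold change -0.62, SE 0.18, adjusted p 0.0340, edgeR). It passed in no fit that left out 1 library. Cgref1, a calcium-binding regulator of growth, was at 33.3, 39.1 and 46.2 against 24.0, 22.4 and 22.9 CPM (-0.77, SE 0.20, adjusted p 0.0178, edgeR) and passed in 3 of the 6 fits with 1 library left out. Neither gene's groups overlapped. Of those that did not pass, the ones with the most UMIs were Gtse1, at 0.22, and Plk3, at -0.11.

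Among cell death targets 1 of 7 passed, or 14.3% beside 13.7% of all genes, a share near the background. It was Pmaip1, which fell and encodes Noxa, like Puma a BH3-only protein, at 24.3, 25.6 and 24.4 CPM in shControl and 15.4, 17.3 and 13.8 in shLmna. The log2 fold change was -0.67 (SE 0.21), close to the estimate of Bbc3, and the adjusted p of 0.0452 in edgeR's test was close to the threshold. Pmaip1 passed in 7 of the 16 alternatives, and in 1 of the 6 that leave out a library. Bax, a pore-forming protein of apoptosis, had 510, 490 and 572 against 459, 427 and 367 CPM, without overlap, and its estimate of -0.32 (SE 0.14) did not pass (adjusted p 0.139, edgeR). Siva1 was estimated at 0.13. Fas, Perp, Pidd1, Aen, Eda2r, Casp1 and Trp73 are not analysed here.

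None of the 4 tested targets of DNA repair and nucleotide supply passed. The one with the most UMIs, Pcna, the sliding clamp of DNA polymerases, was at 129, 162 and 213 CPM in shControl and at 145, 229 and 205 in shLmna (estimate 0.21, SE 0.20), and Polk, a translesion polymerase, was estimated at -0.10.

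Targets in metabolism, redox balance and autophagy went both ways, with 2 higher and 2 lower among 10 tested, beside 7.96% of all genes that passed higher and 5.78% lower. Ephx1, the microsomal epoxide hydrolase, rose from 29.8, 21.3 and 20.7 CPM in shControl to 75.7, 70.9 and 94.7 in shLmna. With a log2 fold change of 1.74 (SE 0.20) and an adjusted p of 4.49e-05 in edgeR's test it was opposite in direction to Cdkn1a and larger in estimate. Ak1, an adenylate kinase, rose as well, from 13.3, 11.6 and 7.43 to 18.7, 24.6 and 16.5 CPM (0.87, SE 0.26, adjusted p 0.0411, edgeR), and passed in 8 of 15 alternatives and in 1 of the 6 that leave out a library. Gls2, a mitochondrial glutaminase, fell from 109, 98.2 and 66.3 to 57.0, 45.5 and 56.9 CPM (-0.79, SE 0.19, adjusted p 0.0136, edgeR). Gls2 passed in 12 of 16 alternatives, and in 2 of the 6 that leave out a library. Dram1, a lysosomal protein of autophagy, fell from 20.8, 16.6 and 15.4 to 11.2, 6.24 and 9.04 (-0.997, SE 0.28, adjusted p 0.0257, edgeR). Dram1 passed in 10 of 15 alternatives, and in 2 of the 6 that leave out a library. Gpx1 and Sco2, with the most UMIs among those that did not pass, were estimated at 0.09 and -0.15.

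The last group, of feedback regulators and other targets, held 2 genes that rose and none that fell among 8, beside 7.96% of all genes that passed higher and 5.78% lower. Thbs1, which encodes the antiangiogenic matrix protein thrombospondin 1, was at 2.75, 2.81 and 2.12 against 6.00, 8.81 and 9.04 CPM (1.58, SE 0.37, adjusted p 0.0116, edgeR), with 4 to 24 UMIs in a library. It passed in 12 of 15 alternatives, and in 3 of the 6 that leave out a library. Tap1, the peptide transporter of antigen presentation and also an interferon-induced gene, rose from 40.4, 34.7 and 38.7 to 58.5, 62.4 and 53.2 (0.62, SE 0.17, adjusted p 0.0225, edgeR), but passed in only 1 of the 6 fits with 1 library left out, where the adjusted p reached 0.131. Rchy1, a ubiquitin ligase for p53, was estimated at -0.20 and Ckap2 at 0.22, and neither passed.

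**Figure D4:**
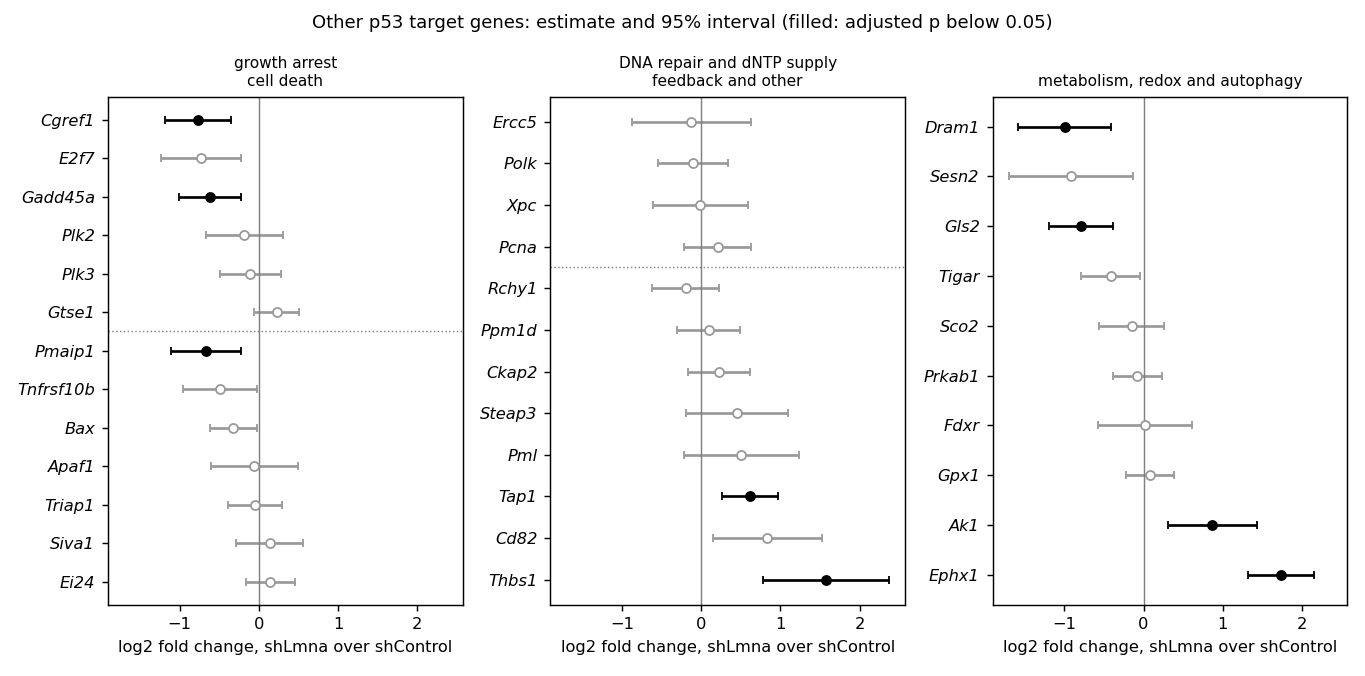
Log2 fold change of shLmna over shControl (x axis) with its 95% interval for the 35 tested p53 targets beyond the first 9, in 5 groups by function, separated by dotted lines. Filled points have an adjusted p below 0.05; 5 lie below 0, from Dram1 at -0.997 to Gadd45a at -0.62, and 4 above 0, up to Ephx1 at 1.74.

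Among genes that regulate p53 or act with it, 21 of 26 had a row, 20 were tested and 4 passed (1 in 5), beside 13.7% of all genes, with a median estimate of 0.19. With 1 library left out between 1 and 6 passed. Without shLmna 2 or shLmna 3, 1 passed (5%), beside 8.30% and 7.10% of all genes in those fits. Without shControl 2, 2 passed (10%), beside 5.89%. Of the 4 that passed with all libraries, 3 fell and 1 rose, beside 5.78% of all genes that passed lower and 7.96% higher. Npm1, nucleophosmin, which can bind Mdm2, was at 848, 795 and 1064 CPM in shControl and at 465, 572 and 630 in shLmna (-0.70, SE 0.16, adjusted p 0.00914, edgeR), a value that is uncertain because near-identical copies of this gene in the genome can share its reads. Ppp1r13l, which encodes iASPP, an inhibitor of p53, fell from 51.8, 41.0 and 47.2 to 30.7, 26.1 and 24.5 CPM (-0.77, SE 0.19, adjusted p 0.0132, edgeR). Ppp1r13l passed in 14 of 16 alternatives, and in 4 of the 6 that leave out a library. Wrap53, the neighbour of Trp53 on the opposite strand, fell from 45.5, 49.7 and 44.6 to 36.7, 26.4 and 28.7 (-0.60, SE 0.19, adjusted p 0.0430, edgeR), and passed in 9 of 16 alternatives, with an adjusted p of up to 0.169. Of the 6 alternatives that leave out a library, Wrap53 passed in 2. Its counted 3′ end is at the far side of the gene from Trp53.

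Atr, the kinase that signals replication stress to p53, was the regulator that rose, from 11.8, 6.25 and 10.1 CPM to 13.5, 18.4 and 21.8 (0.94, SE 0.29, adjusted p 0.0448, edgeR). With 19 to 50 UMIs in a library, Atr passed in 8 of 15 alternatives, and in 3 of the 6 that leave out a library. Rpl11, a ribosomal protein that inhibits Mdm2, and Usp10, which deubiquitinates p53, had the most UMIs among those that did not pass, at -0.05 and 0.10. Rpl11 too has near-identical copies. Cdkn2a, Crebbp, Hipk2, Trim24 and Ppp1r13b are not analysed here.

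p21 lowers many cell cycle genes through the DREAM repressor complex, and 30 such genes were listed, of which 27 were tested. 3 passed, or 11.1% beside 13.7% of all genes, and the median estimate was 0.13. Ccna2, which encodes cyclin A2, rose from 125, 136 and 181 CPM in shControl to 255, 273 and 248 in shLmna (0.82, SE 0.16, adjusted p 0.00323, edgeR). Cdc25a, the phosphatase that activates cyclin-dependent kinases at the start of S phase, fell from 78.8, 75.7 and 72.7 to 42.3, 45.9 and 40.9 (-0.81, SE 0.16, adjusted p 0.00334, edgeR). Both passed in every alternative. Cdc20, an activator of the anaphase-promoting complex, also fell, from 434, 386 and 371 to 328, 275 and 240 CPM (-0.50, SE 0.15, adjusted p 0.0376, edgeR). Cdc20 passed in 11 of 16 alternatives, and in 2 of the 6 that leave out a library. Cks1b, at -0.01, and Birc5, at -0.07 with 417, 387 and 425 against 373, 385 and 410 CPM, had the most UMIs among those that did not pass.

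**Figure D5:**
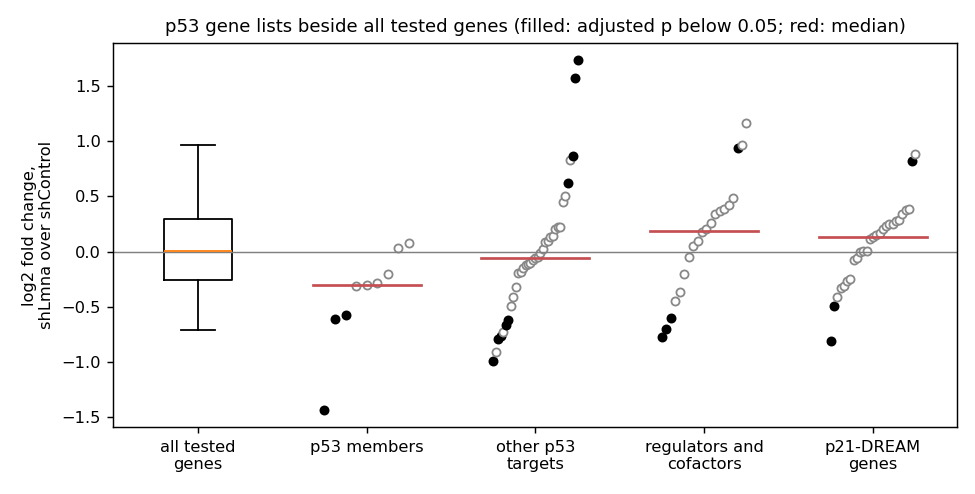
Log2 fold change of shLmna over shControl (y axis) of each tested gene (points, filled where the adjusted p is below 0.05) in 4 lists, with the list's median in red; the box shows the quartiles of all 8969 tested genes and its whiskers the 5th and 95th percentiles (-0.71 and 0.97). The medians are -0.31 for the 9 p53 genes, -0.06 for other targets, 0.19 for regulators and 0.13 for genes repressed through p21.

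Several genes of these wider lists share their counted 3′ end, taken from the same kind of transcript, with another annotated gene. The sources used here do not give whether the counting used strand. Gadd45a overlaps E230016M11Rik, Gls2 overlaps Spryd4, Atr overlaps Gm16794, Ccna2 overlaps Exosc9, Cdc20 overlaps Elovl1 and Plk3 overlaps Tctex1d4, each on the opposite strand. Bax overlaps Gm45808 and Sco2 overlaps Tymp on the same strand. Their values are uncertain to that extent.

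The cells were checked against markers. Of 6 epithelial markers 4 had a row, with a summed level of 266 to 323 CPM in shControl and 288 to 316 in shLmna. Krt8 made up most of it, whereas Epcam was at 13.3 to 14.4 in shControl and 4.25 to 11.7 in shLmna, and Krt19 and Cdh1 are not analysed here. The 5 fibroblast markers measured, of 6, summed to 4834 to 5718 and 5639 to 6438 CPM, nearly all of it Vim, and 2 immune markers of 6 to 15.3 to 17.3 and 18.4 to 24.4. In these lists Pdgfrb (0.74, adjusted p 0.0457, edgeR) and Lyz2 (1.28, adjusted p 0.0110, edgeR) rose in shLmna cells, while Cd68, the other immune marker measured, was estimated in the opposite direction and did not pass (-0.62, adjusted p 0.234, edgeR). The 1 endothelial marker of 5 that was measured stood at 0.625 to 3.18 in shControl and 0.750 to 2.13 in shLmna. Their part in the differences described here was not tested.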

How the data were processed

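The authors processed the MARS-seq reads with the UTAP pipeline: adapters were trimmed with Cutadapt, reads were mapped to mm10 with STAR 2.4.2a, and UMIs were counted once by a modified HTSeq-count in a window from 1000 bases before to 100 bases after the 3′ end of RefSeq genes. The deposited counts are whole numbers without normalization, and every gene listed has at least 6 UMIs in some library. Deposited log2 values corrected with ComBat, and the authors' own DESeq2 comparison (mean, log2 fold change, p and adjusted p), were not used.

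In R 4.3.3, low genes were removed (filterByExpr, minimum count 10), libraries were scaled by TMM, and 3 shLmna were compared with 3 shControl libraries by the quasi-likelihood test of edgeR 4.0.16 with Benjamini-Hochberg adjustment over all 8969 genes. No set test was run. An exact permutation test with 3 against 3 cannot go below p = 0.1. Alternatives were DESeq2 1.42.0, limma-voom (limma 3.58.1), RLE and upper-quartile scaling, no filter, a mean count of at least 50, thinning to the smallest library, the replicate number as a block, a GC correction (loess, span 0.3) with and without the block, and each library left out. The scripts were tested on simulated data. Libraries of 1 group differed beyond sampling noise (chi-square per degree of freedom 5.11 to 8.28), so none was counted as a duplicate.

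Coordinates are from GENCODE M21 (GRCm38), matched to 10468 of the 10520 genes, 323 of them by an older symbol, and promoter sequences from RefSeq (GRCm38.p6), taken by symbol. Python 3.11.15 was used for tables and plots. The members and lists were chosen with earlier results of these data known. Named are the members, Lmna, and from each wider p53 list all genes that passed, up to 8, and the 2 with the highest mean count that did not. Some results are not reported here. Markers and the 3′ overlapping genes are named besides.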

Additional observations from a re-analysis of the deposited data

How the results depend on the processing

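Between 1 and 2 of the 9 p53 genes passed when 1 library was left out, in place of 3: Cdkn1a in every such fit, and 1 further gene without any 1 of the shControl libraries. Without shLmna 1, 2 or 3 the share was 11.1%, beside 9.43%, 8.30% and 7.10% of all genes. Without shControl 1, 2 or 3 it was 22.2%, beside 8.65%, 5.89% and 17.2%. With DESeq2 and with thinned counts 2 passed (22.2%, beside 11.5% and 12.4% of all genes). The estimates of Cdkn1a ranged from -1.51 to -1.35 over the 16 alternatives (adjusted p 1.38e-10 to 0.00216), those of Trp53 from -0.40 to -0.21 without passing, and those of Bbc3 from -0.72 to -0.54. Leaving out 1 library gave 540 (without shControl 2) to 1580 (without shControl 3) genes passed among all genes, in place of 1232, 1 to 8 of the other targets in place of 9, with 1 without shControl 2, shLmna 2 or shLmna 3, 1 to 6 of the regulators and 2 to 4 of the genes repressed through p21. A mean count of at least 50 left 779 passed genes. With DESeq2 2 regulators passed, and 2 with thinning, each 10% of those tested, beside 11.5% and 12.4% of all genes. Cdkn1a, Lmna, Ephx1, Npm1, Ccna2 and Cdc25a passed in all 16. Of 634 estimates of 40 named genes, 74 no longer passed and 21 changed sign, none of a gene that had passed. The sign changed for Ccng1 with GC correction (-0.25, with the block -0.26) and for Cks1b with upper-quartile scaling (0.0043), a mean count of at least 50 (0.0019) and GC correction (0.052, with the block 0.049). With 1 library left out the estimates spanned 0 for Ccng1 (-0.092 to 0.24), Sesn1 (-0.12 to 0.27), Zmat3 (-0.58 to 0.048), Siva1 (-0.061 to 0.36), Polk (-0.19 to 0.014), Sco2 (-0.30 to 0.036), Rpl11 (-0.19 to 0.12), Usp10 (-0.019 to 0.24) and Cks1b (-0.091 to 0.034). The cause of these changes was not tested. Of the same-numbered libraries those numbered 1 deviated together (correlation 0.357) and those numbered 2 and 3 did not (-0.116 and 0.00333), so the numbers were not taken as pairs. With the replicate block 1350 genes passed, 3 of the 9 p53 genes, 9 other targets without Pmaip1, 5 regulators and 3 genes repressed through p21. Whether depth sets the width of the intervals of genes with few UMIs, such as Zmat3 and Sesn1, was not tested.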
